A study of Mus musculus with 12 samples.

Results

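The interferon-induced GTPases of the Gbp and Irg families were followed across vehicle- and ISRIB-treated mouse macrophages in the unpolarized (M0) and the M1-like state. The members were the symbols Gbp2, Gbp3, Gbp5, Gbp7, Irgm1, Irgm2, Igtp, Iigp1 and Ifi47, together with Mir6381, a microRNA gene on the strand opposite to Gbp2. They were taken by name, and all 10 were found among the 24552 symbols of the count table. All 10 had counts in M1 cells of both treatments, while 5 in vehicle M0 and 6 in ISRIB M0 had no count in any library. Mir6381 carried by far the most counts of the 10, with 12796 to 16017 per M1 library against 138 to 262 per M0 library. By edgeR with the filter on low counts used throughout, 6 of the 10 members could be tested. None of them passed the threshold between ISRIB and vehicle in either state, and neither did any of the 2356 genes tested (0%). Gbp7 in M0 passed under some alternatives.

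Guanylate-binding proteins (Gbp) are large GTPases of the dynamin superfamily, and immunity-related GTPases (Irg) are smaller ones. In macrophages both are induced by interferon-γ and assemble on vacuoles that hold intracellular pathogens or on the pathogens themselves. Within the Irg family, Irgm1, Irgm2 and Igtp (also called Irgm3) are regulators that protect the cell's own membranes, whereas Iigp1 (Irga6) and Ifi47 (Irgd) are effectors that load onto vacuoles. Gbp2 is a lipid-anchored effector that coats vacuoles and bacteria, Gbp5 has been linked to inflammasome activation, and Gbp7 to oxidative killing.

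Polyadenylated RNA had been sequenced from macrophages grown out of mouse bone marrow for 6 days in 10 ng/ml M-CSF, in RPMI with serum. Vehicle cells received DMSO and ISRIB cells received 50 nM ISRIB, an inhibitor of the integrated stress response, starting 1 h ahead of stimulation and kept on throughout. M1 cells were then given IFN-γ at 25 ng/ml together with LPS at 10 ng/ml, lasting 16 h. Each of the 4 groups (M0 and M1 cells, each with vehicle or ISRIB) had 3 libraries that the labels call biological replicates. The labels do not give the strain, age or genotype of the mice, what M0 cells received while M1 cells were stimulated, or whether replicates came from separate animals. The p-values therefore measure only the spread between these samples, which may be technical. In bulk RNA, fewer cells of a type and less RNA per cell cannot be told apart.

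Library totals ranged from 439976 to 514037 counts, so a symbol at a handful of counts is known only coarsely, and zero counts were compared with a floor of 3 per library. Symbols with exons overlapping a gene on the opposite strand held 91.2% to 93.1% of the annotated counts of a library. The strand setting used for counting is not given in the sources used here, and counts from a gene and its opposite-strand partner cannot be told apart. All 14 macrophage markers had counts, and their sum ranged from 155 to 2784 per library. Cd163 made most of the M0 values, with 1488 to 2342 counts in M0 and 1 to 11 in M1. By edgeR the other tested markers went both ways. Adgre1, Cd14 and Itgam were called higher in M1 in both treatments, and Lyz2 and Cx3cr1, like Cd163, lower in both. In vehicle alone, Ctss and Fcgr1 were called higher and Csf1r lower, and Cd68 was called in neither treatment. The median log2 fold change of the 10 tested markers was 0.01 in vehicle and -0.01 under ISRIB. Marker sums stayed at 0 to 4 counts for neutrophils and for B cells, 0 to 2 for T or NK cells and for mast cells, and 0 for fibroblasts. The dendritic cell list summed to 22 to 434 counts, through Xcr1 with 6 to 19 counts in M0 and 325 to 434 in M1 and through Clec9a with 10 to 47 in M0 and 0 in every M1 library. Flt3 and Zbtb46, the defining genes of conventional dendritic cells, were at 0 in all 12 libraries. The macrophage marker Adgre1 itself had only 4 to 66 counts per library. Low sums and 0 counts therefore do not show that a cell type was absent. The part of the Xcr1 and Clec9a shifts in the results was not tested.

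Mir6381 lies at chr3:142623860-142623946 on the minus strand of GRCm38 (the build mm10), inside Gbp2, which runs from chr3:142620602-142638008 on the plus strand (GENCODE vM21). Its 87 bases cover the last 24 bases of Gbp2 exon 2 (chr3:142623670-142623883), all 24 of them coding, and the other 63 lie in the intron that follows. The mature microRNA arm (RefSeq, GRCm38.p6) starts 42 bases past the end of the exon, at chr3:142623925-142623945, and so falls wholly within the intron. Both sequences are shown because they set which spliced RNA a count under Mir6381 could have touched. Capitals mark the seed, bases 2 to 8 of the mature microRNA, and the exon stretch (GENCODE transcript sequence, plus strand) has no capitals.
mmu-miR-6381 mature: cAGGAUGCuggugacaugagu
Gbp2 exon 2 end: acaagctagctgggaagaggacag
Among all annotated transcripts, the 24 exon bases occurred in the sense direction in Gbp2 alone and in the antisense direction in Mir6381 alone. In the other Gbp genes the closest stretch of the same length, in Gbp5, had 5 mismatches, and the farthest had 8.

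**Figure D1:**
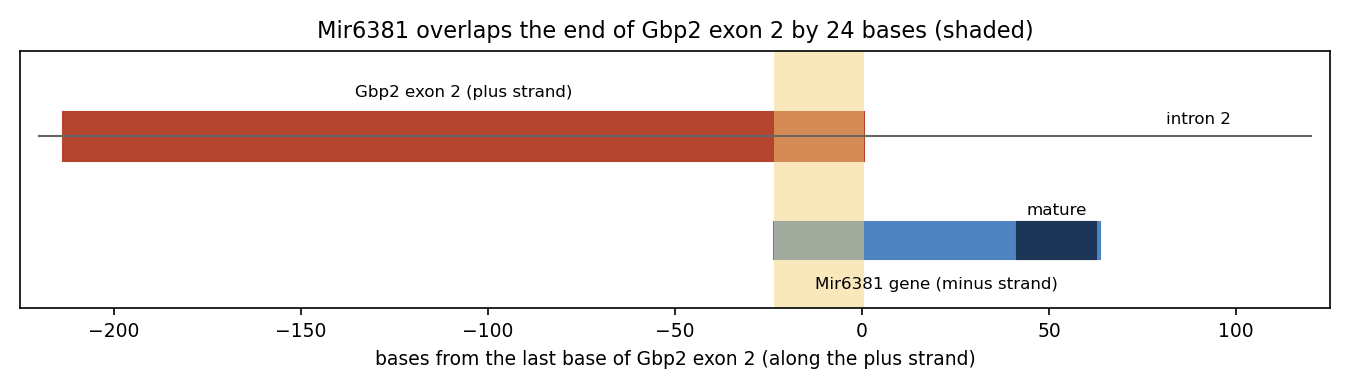
Position of Mir6381 (blue, minus strand; mature arm in dark blue) relative to Gbp2 exon 2 (red, plus strand), in bases from the last base of the exon. The shaded 24 bases are shared by both genes, and the mature arm lies 42 bases and more into the intron.

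Mir6381 had 194, 146 and 151 counts in the vehicle M0 libraries and 16017, 12796 and 15169 in vehicle M1. Under ISRIB it had 213, 138 and 262 counts in M0 and 14966, 14438 and 13791 in M1. Every M1 library lay above every M0 library by a wide gap, and the M1 libraries of both treatments overlapped. The mean level was 308.9 ± 49.2 CPM (CPM are counts rescaled to a common library size of 1e+06 with TMM; SD, n = 3) in vehicle M0 and 36488 ± 3611 in vehicle M1, a ratio of 118. Under ISRIB it was 394.9 ± 127 CPM in M0 and 34039 ± 2920.2 in M1, a ratio of 86.2. By the quasi-likelihood test of edgeR (Benjamini-Hochberg adjusted) over 2356 genes, the log2 fold change was 6.88 ± 0.19 (SE; adjusted p = 4.46e-20) in vehicle and 6.43 ± 0.18 (adjusted p = 1.31e-19) under ISRIB. Mir6381 had the smallest p of all genes tested in both comparisons. It ranked 3 by mean count among all symbols in both M1 groups, against 443 in vehicle M0 and 390 in ISRIB M0.

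Gbp2, the coding gene on the other strand, had 0 counts in all 6 M0 libraries. Its M1 counts were 89, 26 and 66 with vehicle and 74, 113 and 84 with ISRIB. No M1 library overlapped the M0 libraries, and vehicle M1 replicate 2 was the lowest of the 6 M1 libraries. Against the floor, Gbp2 was at least 26.4-fold higher in vehicle M1 (adjusted p = 1.13e-08 by edgeR) and, under ISRIB, by a factor of at least 36.7 (adjusted p = 3.06e-09).

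The sizes of the counts under both symbols differed greatly in M1. Mir6381 had 180, 492 and 229.8 counts for each Gbp2 count in the vehicle M1 libraries, and 202, 128 and 164 in ISRIB M1. Gbp2 thus held between 0.203% (exact 95% binomial interval 0.133% to 0.297%, counting error only) and 0.777% (0.640% to 0.933%) of the counts of the locus. The lowest share was that of vehicle M1 replicate 2. In M0, Mir6381 had 1104 counts over the 6 libraries and Gbp2 had 0, where the summed M1 ratio of 193 would put 5.72 Gbp2 counts. Taken library by library, 0 Gbp2 counts in M0 allowed a share of up to 1.40% to 2.64% (exact 95% interval), above every M1 share. With 138 to 262 Mir6381 counts, a single M0 library was too shallow to show a lower share, so equal shares do not follow. Whether the shares of M0 and M1 differed was not tested. RNA had been selected for poly(A) tails, and which of the 2 genes gave the reads counted under Mir6381 was not tested.

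**Figure D2:**
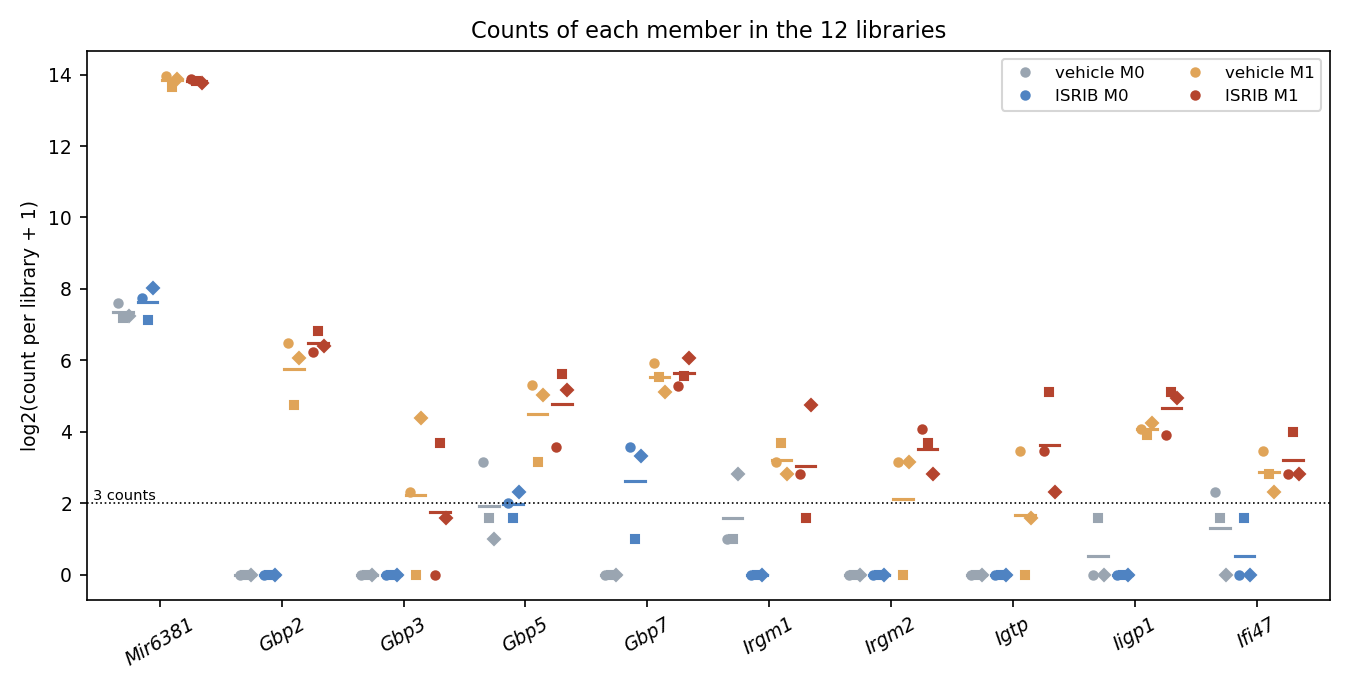
Counts per library as log2(count + 1) for each member, coloured by group, with circle, square and diamond for replicates 1, 2 and 3 and a bar at the group mean; the dotted line marks 3 counts. Mir6381 stands far above the other 9 symbols in every library, and M0 libraries of most coding members sit at or below the dotted line.

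Of the 10 members, 6 had enough counts to be tested (Mir6381, Gbp2, Gbp5, Gbp7, Igtp and Iigp1). In vehicle, all 6 were higher in M1 by the quasi-likelihood test of edgeR (Benjamini-Hochberg adjusted), where 24.3% of the 2356 genes tested were called higher. Under ISRIB, the same 6 were called higher, against 23.9% of all genes. The filter asked for enough counts in 3 libraries, and all 5 coding members tested reached it through M1 alone, since 0 or 1 of their M0 libraries did. They were thus selected for high M1 counts, so the count describes them and supports nothing. Without overlap between the groups, 7 of 10 members had every vehicle M1 library above every vehicle M0 library in CPM, against 27.7% of genes tested. By raw count 3 of these 7 (Gbp5, Irgm1 and Ifi47) had a library of the same count in both groups. Under ISRIB 9 of 10 members had every M1 library above every M0 library in CPM, against 28.8%, and Gbp3 was the exception. These counts too are only descriptions, since the tested coding members entered through M1. The shares cover tested genes alone, and Gbp3, Irgm1, Irgm2 and Ifi47 were not tested.

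Gbp7 (chr3:142530342-142550149, plus strand) was the best counted of the other guanylate-binding proteins. Vehicle M0 libraries held none, and vehicle M1 libraries held 60, 45 and 34 counts. Under ISRIB it had 11, 1 and 9 counts in M0 and 38, 46 and 66 in M1. The M1 libraries of both treatments overlapped, and all lay above all M0 libraries. It was at least 20.4-fold higher in vehicle M1 (adjusted p = 7.82e-08), and under ISRIB its log2 fold change was 3.09 ± 0.54 (adjusted p = 5.70e-05, both by edgeR, Benjamini-Hochberg adjusted).

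Gbp5 (chr3:142493978-142522344, plus strand) had low counts in M0 of both treatments, with 8, 2 and 1 in vehicle and 3, 2 and 4 under ISRIB. In M1 it had 39, 8 and 32 counts in vehicle and 11, 48 and 35 under ISRIB. Vehicle M1 replicate 2 and vehicle M0 replicate 1 held the same count of 8, and only scaling for library size placed the first above the second. The log2 fold change was 3.20 ± 0.73 (adjusted p = 0.000832) in vehicle and 3.60 ± 0.75 (adjusted p = 0.000321) under ISRIB, by edgeR as above. Without vehicle M0 replicate 1, the M0 library with 8 counts, the vehicle value was 4.39 (adjusted p = 0.000328), and over all libraries left out in turn it ranged from 2.79 to 4.39.

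Gbp3 (chr3:142560026-142573209, plus strand) was counted in M1 libraries alone, at 4, 0 and 20 in vehicle and 0, 12 and 2 under ISRIB, and was not tested. Since 1 M1 library of each treatment was at 0, its groups overlapped. The remaining Gbp genes also had few counts, and 0 of the 7 in the table had enough counts for the test. Gbp4 summed to 17 counts over the vehicle M1 libraries and 15 over ISRIB M1, Gbp6 to 12 and 19, and Gbp9 to 10 and 12, each with 0 in all M0 libraries. Gbp2b summed to 15 counts in vehicle M1 and 2 in ISRIB M1, and was at 0 in M0. Gbp proteins are close paralogs encoded side by side, so reads that fit several of them may have been split or dropped by the authors' counting.

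Of the regulatory Irg genes, Igtp alone had enough counts for the test. Its counts were 10, 0 and 2 in vehicle M1 and 10, 34 and 4 with ISRIB, and all 6 M0 libraries were at 0. Vehicle M1 replicate 2 was at 0 like the M0 libraries, while all 3 ISRIB M1 libraries were above them. Against the floor, the mean of Igtp was at least 1.76-fold higher in vehicle M1 (adjusted p = 0.0273 by edgeR, Benjamini-Hochberg adjusted). That factor came from replicate 1, since replicates 2 and 3, at 0 and 2 counts, lay under the floor of 3. It takes no account of the spread between M1 libraries. Under ISRIB the mean was at least 6.39-fold higher (adjusted p = 0.00242 by the same test). The vehicle call was not stable. The adjusted p was 0.234 without vehicle M1 replicate 1, and it was 0.0605, 0.0625 and 0.0611 without vehicle M0 replicate 1, 2 and 3 in turn. It was also lost with limma-voom (0.0911), with limma on the authors' log2 values (0.0969) and with the DESeq2 Wald test (0.0892).

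Irgm2 was at 0 in M0, and its M1 counts were 8, 0 and 8 with vehicle against 16, 12 and 6 with ISRIB. Irgm2 and Igtp share annotated exon bases on the same strand of chromosome 11 (chr11:58199618-58222782 and chr11:58199556-58207591), so a read in the shared part could count for either or neither. Irgm1 (chr11:48861968-48871683, minus strand), the regulator with a part in autophagy, had 1, 1 and 6 counts in vehicle M0 and 8, 12 and 6 in vehicle M1. Under ISRIB, Irgm1 had 0 counts in each M0 library and 6, 2 and 26 in M1. Vehicle M0 and vehicle M1 touched at 6 counts, whereas the ISRIB groups did not.

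The effector Iigp1 (chr18:60376027-60392634) had 0, 2 and 0 counts in vehicle M0 and 16, 14 and 18 in vehicle M1. Under ISRIB it had 0 counts in each M0 library and 14, 34 and 30 in M1. The groups of each treatment were well apart. The log2 fold change in vehicle was 4.73 ± 0.94 (adjusted p = 0.000238), with a ratio of mean CPM of 33.3 whose 95% counting interval, from 2 counts in M0, ran from 8.32 to 269. Without vehicle M0 replicate 2, the library with those 2 counts, vehicle M0 was at 0 and the fitted value of 7.22 (adjusted p = 0.000215) is no measure of size. Under ISRIB Iigp1 was at least 10.5-fold higher (adjusted p = 9.36e-06, both by edgeR, Benjamini-Hochberg adjusted).

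Ifi47 (chr11:49076587-49096974, plus strand) had 4, 2 and 0 counts in vehicle M0 and 10, 6 and 4 in vehicle M1, so that both groups held a library with 4. Under ISRIB it had 0, 2 and 0 counts in M0 and 6, 15 and 6 in M1. The gene shares exon bases on its own strand with Olfr56 and overlaps Gm12188 on the other. It was 1 of the 4 members under the filter, with Gbp3, Irgm1 and Irgm2.

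A more lenient filter (a minimum count of 3, which admitted 4738 genes and was added after seeing the data) brought in all 4. By the quasi-likelihood test of edgeR (Benjamini-Hochberg adjusted) the adjusted p in vehicle was then 0.0124 for Gbp3, 0.0113 for Irgm2, 0.179 for Irgm1 and 0.226 for Ifi47. Under ISRIB it was 0.0364 for Gbp3, 0.00205 for Irgm2, 0.000568 for Irgm1 and 0.0306 for Ifi47. With that filter 8 of 10 members were called in vehicle and 10 of 10 under ISRIB, where 1166 and 1137 of the 4738 genes were called in either direction. The 4 added members also had most of their counts in M1, so these counts too are only a description.

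**Figure D3:**
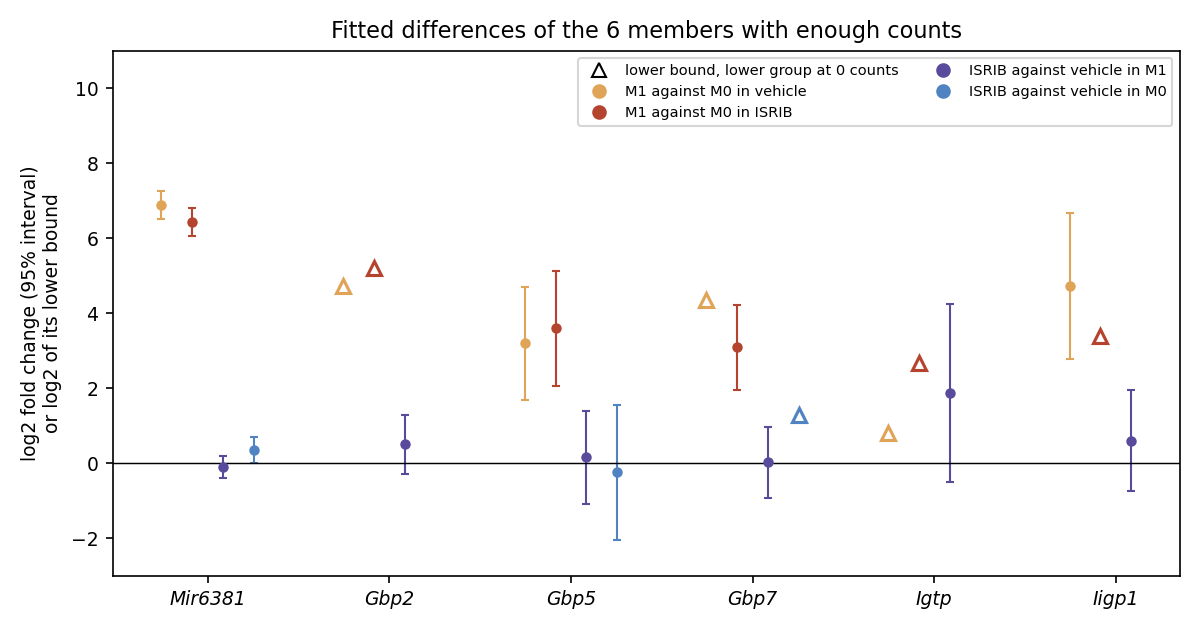
Log2 fold changes (points, with 95% intervals) of the 6 tested members in 4 comparisons; open triangles show log2 of the lower bound where the lower group had 0 counts, and a comparison with no counts to compare is left out. Points and triangles for M1 against M0 lie above 0 for all 6 members, and every interval for ISRIB against vehicle in M1 includes 0.

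Compared per kilobase of annotated exon, Gbp2 was the highest coding member in M1, at 59.4 ± 31.2 CPM per kb in vehicle and 84.2 ± 14.6 under ISRIB (SD, n = 3). Gbp7 was next, at 20.6 ± 6.10 and 20.9 ± 5.75 CPM per kb. Their libraries overlapped in vehicle, where Gbp2 in replicate 2 fell to 26.6 and Gbp7 in replicate 1 reached 26.8, and did not overlap under ISRIB. From Gbp7 down, the libraries of each coding member overlapped those of the next in both M1 groups. These levels ran from 9.80 ± 6.01 CPM per kb for Gbp5 to 3.55 ± 3.07 for Irgm2 in vehicle M1, and from 18.2 ± 17.3 for Igtp to 3.23 ± 4.41 for Gbp3 in ISRIB M1. Mir6381, whose gene is only 87 bases long, stood at 419398 ± 41507 CPM per kb in vehicle M1, a value not comparable with those of the coding members. As the strand setting is not given, the counts of a symbol need not measure its RNA, and the order is one of counts alone.

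The promoters of the coding members were searched for the letters of 2 motifs known from interferon-responsive genes. The interferon-stimulated response element, bound by IRF factors, was taken as GAAANNGAAA on either strand, and the interferon-γ activated site as TTCNNNGAA, which reads the same on both strands. The motifs may overlap. Within the 250 bases before a RefSeq start site (GRCm38.p6), 2.98% of all 32851 promoters held the first and 7.02% the second. Of the 1843 tested genes with a promoter entry, 4.40% and 6.78% did. Among the 8 members with an entry, 7 held the first (all but Ifi47) and 4 held the second (Gbp5, Gbp7, Irgm2 and Igtp). A gene was counted if any of its entries held the motif, and another Gbp3 entry, starting at chr3:142560356, held neither. The RefSeq starts of Gbp2, Gbp5, Irgm1 and Irgm2, and the first motif before them, lie inside the GENCODE spans of these genes. The 30 bases around the first motif are given for each of the 7, since they carry the feature that the members share, read along the gene's own strand and with the motif letters in capitals.
Gbp2 at chr3:142620594-142620623, plus strand: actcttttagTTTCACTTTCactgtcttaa
Gbp3 at chr3:142559992-142560021, plus strand: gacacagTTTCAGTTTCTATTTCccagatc
Gbp5 at chr3:142496759-142496788, plus strand: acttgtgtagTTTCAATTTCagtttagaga
Gbp7 at chr3:142530273-142530302, plus strand: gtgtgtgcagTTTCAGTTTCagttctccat
Irgm1 at chr11:48871428-48871457, minus strand: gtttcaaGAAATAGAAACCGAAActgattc
Irgm2 at chr11:58214898-58214927, plus strand: ccatTTCCAGGAActGAAACTGAAAgctgt
Igtp at chr11:58199507-58199536, plus strand: ccatTTCTAGGAActGAAACTGAAAgctgt
Gbp3 and Irgm1 held overlapping copies of the first motif, which is why their capitals run longer. In Irgm2 and Igtp the second motif came just before the first, and 29 of the 30 bases shown were identical. In Gbp2 the first motif began 59 bases before the start site, in Gbp7 53, in Gbp5 165, in Irgm2 64 and in Igtp 34. A match of letters is a description and not evidence of binding.

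**Figure D4:**
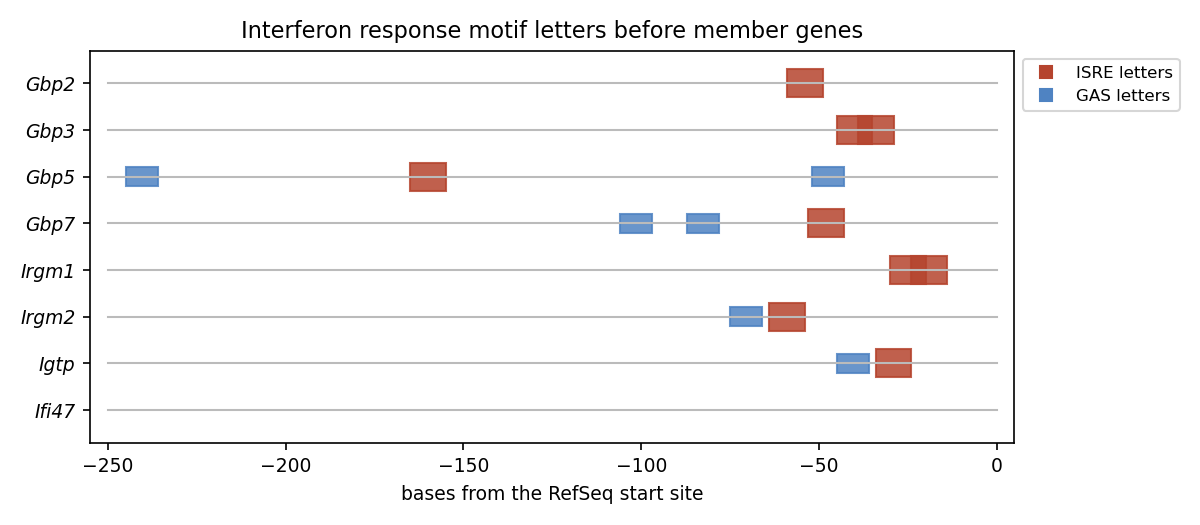
Positions of the interferon-stimulated response element letters (red) and the interferon-γ activated site letters (blue) in the 250 bases before the RefSeq start of 8 members. In 6 of the 7 genes with red boxes they lie within 64 bases of the start, and in Gbp5 the box starts at 165.

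In M1 cells, ISRIB and vehicle were compared to ask whether inhibiting the stress response altered these genes. None of the 6 tested members was called by the quasi-likelihood test of edgeR (Benjamini-Hochberg adjusted), nor was any of the 2356 genes (0%), and 5.69% of genes had an unadjusted p below 0.05. DESeq2, limma-voom and limma on the authors' log2 values also called 0 genes. Adjusted p-values of the members ranged from 0.900 to 0.996 and the smallest unadjusted p was 0.116, for Igtp. Mir6381, the best counted, had a log2 fold change of -0.10 (95% interval -0.39 to 0.19). For Gbp2 it was 0.50 (-0.28 to 1.28), for Gbp7 0.02 (-0.93 to 0.97) and for Gbp5 0.16 (-1.09 to 1.40). For Iigp1 it was 0.60 (-0.75 to 1.96) and for Igtp 1.87 (-0.50 to 4.23). The intervals of the coding members thus leave room for a change, most of all in Igtp, where the interval reaches 4.23. Those of the other coding members reach down to -1.09 (Gbp5) and up to 1.96 (Iigp1). None of the 10 members, tested or not, had groups that did not overlap, against 5.39% of genes tested with ISRIB above vehicle and 6.2% below.

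The direction within M1 differed by library, compared here by replicate number, which the labels do not call a pairing. Of the 10 members, 1 was higher in ISRIB than in vehicle between the libraries numbered 1, against 7 between those numbered 2 and 7 between those numbered 3. The differences between the libraries numbered 2 were the largest for several genes, at 1.86 for Gbp2, 2.17 for Gbp5 and 4.24 for Igtp in log2 CPM. The 9 coding members summed to 244, 111 and 190 counts with vehicle and to 175, 316 and 259 with ISRIB in M1. The share of counts in symbols without an opposite-strand overlap was 7.82%, 7.34% and 8.35% in the same vehicle libraries and 7.55%, 8.79% and 7.74% in the ISRIB ones. Vehicle M1 replicate 2 was lowest and ISRIB M1 replicate 2 highest in both measures, while the other 4 libraries did not follow the same order in both. Between these libraries 59.2% of the 760 tested symbols without an overlap were higher in ISRIB, against 45.7% and 46.4% for the libraries numbered 1 and 3. The part of this share in the members' differences was not tested.

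**Figure D5:**
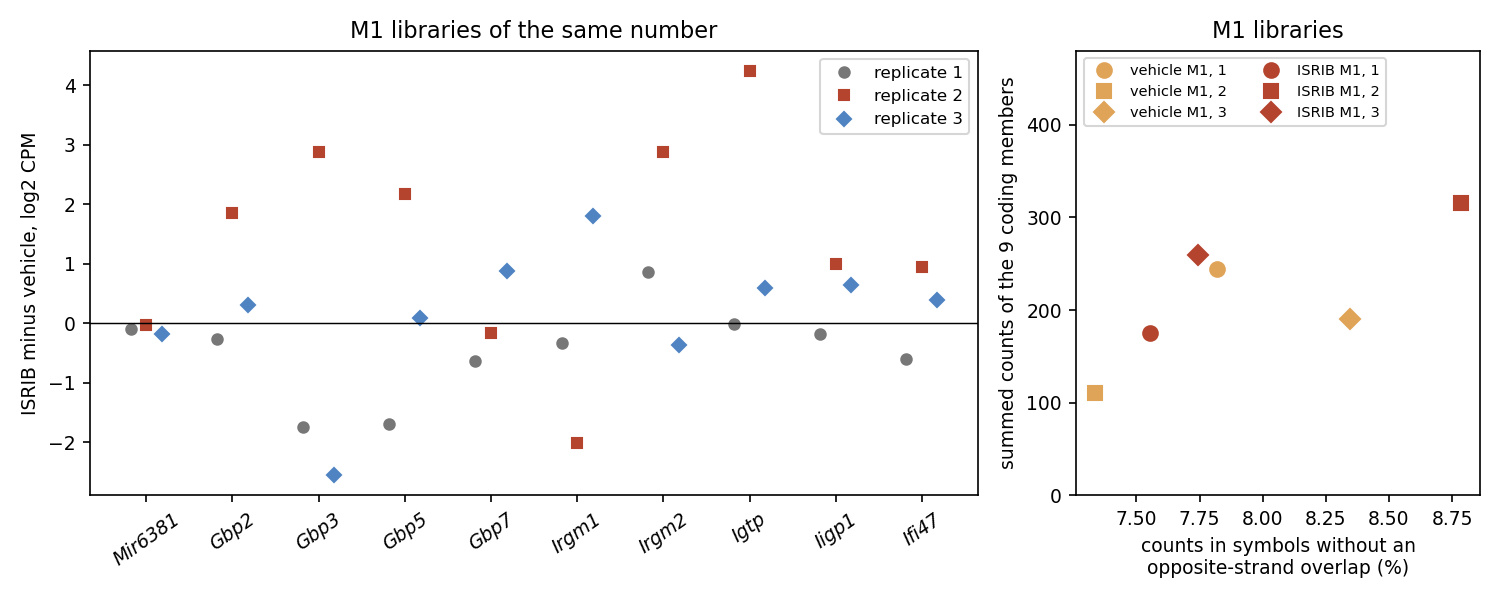
Left, difference in log2 CPM between the ISRIB and vehicle M1 libraries of the same number for each member. Right, summed counts of the 9 coding members against the percent of counts in symbols without an opposite-strand overlap for the 6 M1 libraries; vehicle M1 replicate 2 (111 counts, 7.34%) and ISRIB M1 replicate 2 (316 counts, 8.79%) are the extremes of both axes.

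In M0 cells, the comparison of ISRIB with vehicle turned on few counts. Again 0% of the 2356 genes was called by the quasi-likelihood test of edgeR (Benjamini-Hochberg adjusted), with 6.07% at an unadjusted p below 0.05. DESeq2 called 3 genes and limma-voom 1. Gbp7 (0, 0 and 0 counts in vehicle, 11, 1 and 9 under ISRIB, given above) was at least 2.44-fold higher under ISRIB with an adjusted p of 0.110, and its unadjusted p of 0.000141 ranked 3 among all genes. It passed without ISRIB M0 replicate 2, the library with 1 count (adjusted p = 0.0125), and with DESeq2 (0.0347), and over the alternatives its adjusted p ranged from 0.00231 to 0.467. Mir6381 had a log2 fold change of 0.35 ± 0.17 (95% interval 0.01 to 0.69; unadjusted p = 0.0444, adjusted p = 0.769), with overlapping groups. Gbp5 had a value of -0.24 ± 0.87 (95% interval -2.04 to 1.56), with overlapping groups. Without overlap between groups, Gbp7 was higher and Irgm1, a member under the filter, lower under ISRIB (1, 1 and 6 against 0, 0 and 0 counts). Of the genes tested, 5.56% were higher and 5.73% lower in this way.

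The interaction, which asks whether the M1 response itself differed between treatments, was called for 0% of genes and for no member by the quasi-likelihood test of edgeR (Benjamini-Hochberg adjusted), and 7.09% of genes had an unadjusted p below 0.05. For Gbp7, the estimate had an adjusted p of 0.192, and because vehicle M0 was at 0 its size is not given. It passed at 0.0477 without ISRIB M0 replicate 2. For Mir6381 the interaction was -0.45 ± 0.22 (unadjusted p = 0.0473, adjusted p = 0.684), in the direction of a smaller rise under ISRIB.

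The genes around these GTPases in their pathway were read from lists of related genes, by the quasi-likelihood test of edgeR (Benjamini-Hochberg adjusted) beside the same 24.3% and 23.9% of genes called higher in M1. All 3 tested genes of the other Irg list, Mx1, all 7 of the signalling list, and Casp1, Il1b and Aim2 passed the filter on low counts through M1 alone. Their counts of calls are therefore descriptions, and nothing is read from them against that background. Of 13 other Irg genes, 3 were tested and all 3 were higher in both treatments. These were Gm12185 (log2 fold change 3.80 ± 0.52 in vehicle and 3.81 ± 0.52 under ISRIB), Tgtp2 (2.72 ± 0.89 and 3.56 ± 0.97), a vacuole-loading effector, and Gm4841, with 0 counts in vehicle M0 and 25 to 29 in vehicle M1. Of 6 other interferon-induced GTPases, only Mx1, an antiviral relative of dynamin, could be tested. Its M1 counts were 10, 10 and 12 with vehicle and 33, 44 and 12 with ISRIB, and M0 was at 0 throughout.

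Of 21 genes of interferon-γ reception and signalling, 7 were tested, of which 5 were higher in vehicle M1 and 6 in ISRIB M1, with none lower. Stat2, a factor of type I interferon signalling, had 0, 2 and 0 counts in vehicle M0 and 21, 18 and 26 in vehicle M1, a log2 fold change of 5.16 ± 0.95 in vehicle and 4.62 ± 0.86 under ISRIB. Irf7, an interferon-induced factor that overlaps Phrf1 on the opposite strand, had 4.68 ± 0.64 and 5.11 ± 0.67, and Usp18, a brake on interferon receptors, had 5.43 ± 1.27 and 4.07 ± 1.11. Irf1, the factor most closely tied to Gbp induction, did not pass in either treatment (1.84 ± 1.16, adjusted p = 0.209, and 1.59 ± 1.08, adjusted p = 0.239), with 14, 0 and 9 counts in vehicle M1.

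Of 21 genes of ubiquitin-like conjugation and vacuole targeting, which place the GTPases on vacuoles, 5 were tested. In vehicle 1 was higher and 1 lower, and under ISRIB 0 were higher and 1 lower, against 20.5% and 20.9% of all genes called lower. The lower gene was Atg7, the activating enzyme of the ATG12 and LC3 conjugation systems, with 803 to 965 counts in vehicle M0 and 73 to 78 in vehicle M1 (-3.15 ± 0.16, adjusted p = 5.15e-15). Under ISRIB it had 752 to 985 counts in M0 and 70 to 112 in M1 (-2.87 ± 0.15, adjusted p = 2.30e-14). The higher one was Arhgdia (2.24 ± 0.74 in vehicle, 0.90 ± 0.68 and not called under ISRIB). Sqstm1, the ubiquitin receptor p62, had 0.35 ± 0.70 in vehicle, and Lgals8, which senses damaged vacuoles, had -1.94 ± 0.90, and neither was called.

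Of 15 genes of the inflammasome and pyroptosis, 4 were tested, with 3 higher in vehicle M1 and 2 in ISRIB M1. Casp1, the inflammasome protease, had a log2 fold change of 5.49 ± 1.05 in vehicle, and Il1b, the cytokine it matures, 4.76 ± 0.95 in vehicle and 4.30 ± 0.86 under ISRIB. Aim2, a sensor of cytosolic DNA that acts downstream of Gbp-mediated lysis, had 4.23 ± 1.18 in vehicle (adjusted p = 0.00467) and 1.89 ± 0.99 under ISRIB (adjusted p = 0.125). The difference between these was not called. Mlkl, the executor of necroptosis, was not called in either treatment (0.63 ± 0.50 and 0.21 ± 0.52). No gene of these lists was called between ISRIB and vehicle in either state or in the interaction.

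The genes with the pattern most like that of Mir6381 over the 12 libraries were found by Pearson correlation of log2 CPM among the 835 tested genes that averaged 50 counts or more. They were Med7 (r = 0.997), Ccdc167 (0.996), AV051173 (0.995), Gm10865 (0.995) and 4933416M07Rik (0.995). For Gbp2 they were Rsad2 (0.988), Med7 (0.987), D730005E14Rik (0.987), Parp9 (0.987) and Gm16712 (0.986). The values are descriptions, since all genes were read from the same 12 libraries, which fall into an M0 and an M1 set.

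The low counts also had a grain. Of the 66 counts above 0 of the 9 coding members, 52 were even numbers (78.8%). All counts above 0 of Gbp3, Irgm2, Igtp and Iigp1 were even, while Gbp5 had 7 of 12 even and Mir6381 7 of 12. The even share was 78.2% over all symbols without an opposite-strand overlap at 2 to 200 counts and 62.3% over those with one. Gbp7 in ISRIB M0 had 3 odd counts. What gave even counts was not tested. With all counts halved, Igtp and Iigp1 dropped under the filter, and the 4 members left were called in both treatments, as were 55.7% and 56.3% of the 1607 genes then tested.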

How the data were processed

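Per the labels' protocols, the mRNA libraries were made with a strand-specific TruSeq kit and read on a NovaSeq6000. The authors deposited whole-number counts per gene symbol for 12 samples, and a table of log2 values that the authors had scaled by library. Every column of both tables was mapped to a sample through the sample descriptions, leaving 0 unused. Per the submitters' processing notes, the build was mm10 and FastQC, HTSeq and DESeq2 were used, with no versions. The aligner and the strand setting of the counting are not given in the sources used here.

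The analysis of counts used edgeR 4.0.16 under R 4.3.3. Symbols were kept with filterByExpr (minimum count 10, minimum total 15), which left 2356 holding 97.6% of counts. Libraries were scaled by TMM, and 4 group means without a replicate block were fitted to all 12 samples. The 5 contrasts were tested with edgeR's quasi-likelihood test, and p-values were adjusted by Benjamini-Hochberg over all genes tested, with a threshold of 0.05. Standard errors are those implied by the test statistic, and 95% intervals use its degrees of freedom. A fold against a group at 0 was taken against 3 counts per library. It is a lower bound as to the group at 0 only, and takes no account of the spread in the other group. Such floors and counting intervals cover counting error only, as reads carried no molecular identifiers. Correlations used log2 CPM with a prior count of 2.

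Alternatives were other normalizations and filters, limma 3.58.1, DESeq2 1.42.0, a replicate block, and leaving out each library. 3 more were added after seeing the data: halved counts, scaling on symbols without an opposite-strand overlap, and a minimum count of 3. Overlaps came from GENCODE vM21 (GRCm38), and microRNA and promoter sequences from RefSeq (GRCm38.p6). Sequences of Iigp1 were not used here, and 1 tested gene of the signalling list is not reported here. The members and the gene lists were chosen with earlier results of these data known. The text names every member, up to 4 tested genes with the most counts per list, list genes called in an ISRIB contrast, opposite-strand neighbours of members, and the 5 genes most like Mir6381 and Gbp2 in pattern. Gbp2b, Gbp4, Gbp6, Gbp9, Irf1, Xcr1, Clec9a, Cd163, Adgre1, Cd14, Itgam, Flt3 and Zbtb46 fall outside that rule and were chosen after their values were seen.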

Additional observations from a re-analysis of the deposited data

How the results depend on the processing

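Most members have few counts, so filters decide how many enter a test. With a minimum mean of 50 counts, 1 member (Mir6381) remained to be tested and was called in M1 against M0, in vehicle and under ISRIB. With that filter 530 and 523 of the 836 genes tested were called in all (63.4% and 62.6%), so a call was common. With a minimum count of 3, 10 members were called under ISRIB, among 1137 of 4738 genes. In ISRIB against vehicle in M0, 1 member (Gbp7) was called with no filter, with a minimum count of 3, with DESeq2 and without ISRIB M0 replicate 2, and the interaction called 1 (Gbp7) with no filter, with a minimum count of 3 and without ISRIB M0 replicate 2. With no filter 10 and 9 of 10978 genes were called in all in these comparisons, and with a minimum count of 3, 10 and 8 of 4738. The fit without ISRIB M0 replicate 2 called 2 and 1 of 2356 genes, and DESeq2 called 3 and 0. Leaving out each library in turn gave 5 to 6 members called in vehicle (39.7% to 45.1% of all genes) and 6 to 6 under ISRIB (38.5% to 44.9%). It gave 0 to 0 for ISRIB in M1 (0% to 0.0424%), 0 to 1 for ISRIB in M0 (0% to 0.17%) and 0 to 1 for the interaction (0% to 0.17%). Some estimates near 0, none of them called, changed sign. For ISRIB in M1, Gbp7 was -0.0086 with scaling on symbols without an opposite-strand overlap and -0.22 to 0.25 on leaving out libraries, and Gbp5 was -0.26 to 0.57. For ISRIB in M0, Gbp5 was 0.11 with limma-voom, 0.065 with limma on the deposited log2 values and -0.64 to 0.96 on leaving out libraries, and in the interaction it was -0.80 to 0.81. Same-numbered libraries showed little shared deviation (correlations of -0.06 to 0.11, not over 0.1 in every pair of any comparison), and the numbers were not taken as pairs. Counting error at low counts can hide a shared deviation, so the correlations do not show that the libraries were unpaired. With the replicate block 6, 6, 0, 0 and 0 members were called in the 5 comparisons, against 44.4%, 43.5%, 0%, 0% and 0.127% of all genes, and no member's call changed. The cause of these changes was not tested, except that a stricter or looser filter changes which genes are tested. Depth limits the coding members most, at 1 to 113 counts in libraries where they were seen.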
